A study of Mus musculus with 30 samples.

Results

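Caloric restriction was set against 3 diets that differ in protein, to find hippocampal transcripts that restriction changed and that none of those diets changed. The comparison held 24 of the 30 libraries of the series: 6 from mice labelled ChowCR, and 6 each from mice labelled 5% P, 10% P and 15% P, which were given equal weight in a single mean, called here the P mean. The 6 libraries labelled Chow served to tell what was particular to ChowCR. CR was read as caloric restriction and P as dietary protein from the title of the series. All animals were mice (Mus musculus) 15 months old, each library came from a whole hippocampus, and every diet had 3 males and 3 females. The strain, the composition of the diets, and the degree and length of restriction are not given in the labels, and no allele or drug is named. The series design calls the animals of a diet biological replicates.

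Caloric restriction lowers insulin and growth factor signalling, moves tissues toward fat and ketone use, and strengthens daily rhythms of feeding and clock gene expression. Diets low in protein and high in carbohydrate limit amino acids while energy intake may stay high. Chaperones, which help proteins fold, act in the cytosol under heat shock factors and in the endoplasmic reticulum (ER) under the unfolded protein response. The hippocampus is a brain region needed for memory, and such diets have been studied for their effect on its ageing.

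Levels are FPKM, fragments scaled by the length of the transcript and the size of the library, as deposited per transcript. Differences are on the log2(FPKM + 0.5) scale, ChowCR minus the P mean unless stated, and SE is their standard error. This scale understates changes of low transcripts. The limma test used transcripts valued in each of the 30 libraries that averaged at least 1 FPKM, which left 4447 transcripts of 3725 gene symbols. P-values were adjusted by Benjamini-Hochberg across those 4447, and the threshold was 0.05. Tests on gene sums took transcripts that a library did not list as 0. They were adjusted over the genes whose sum was above 0 in every library and averaged at least 1 FPKM. Libraries listed between 19681 and 21853 transcripts in ChowCR and between 19978 and 21327 in the P diets. The tested transcripts held 70.7 to 71.6% of the summed FPKM in ChowCR and 70.3 to 72.1% in the P diets. Read depth is unknown. Markers of hippocampal pyramidal and granule neurons summed to between 876 and 1246 FPKM in ChowCR and between 761 and 1170 FPKM in the P diets, with 0 of the 13 markers in the file at 0 in every library. The numbers that end the sample titles were 97.3 to 122.3 in ChowCR and 7.3 to 88.3 in the P diets. The labels do not say what these numbers are, so any batch they follow cannot be told apart from restriction. Because these were bulk samples, fewer cells of a type and less RNA per cell cannot be told apart.

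The data hold no transcript that separated ChowCR from the P mean beyond the threshold, and a small set that came near it. Of 4447 transcripts, 0 passed (0%; limma, smallest adjusted p = 0.075), and 288 had an unadjusted p under 0.05. Of these, 156 were higher in ChowCR (3.51%) and 132 were lower (2.97%), where 222.4 in all would be expected with no difference. Set against the 5% P, 10% P and 15% P diets singly, ChowCR gave 0 passing transcripts each, with 300, 247 and 291 at an unadjusted p under 0.05 (limma). The lowest adjusted p against a single diet was 0.063, against 15% P. Against the mean of all 4 other diets, Chow included, 2 transcripts passed (0.045%), and both rose in ChowCR. These were a Pabpn1 transcript and the predicted gene Gm15525, and 300 transcripts had an unadjusted p under 0.05 there. Each P diet against Chow gave 0 passing transcripts (limma), with 242, 279 and 234 at an unadjusted p under 0.05 for 5% P, 10% P and 15% P. ChowCR against Chow gave 2 (0.045%; limma, smallest adjusted p = 0.0059), both higher in ChowCR, with 303 at an unadjusted p under 0.05.

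A rule then picked transcripts on which ChowCR stood apart from every other diet. It asked for an unadjusted p under 0.05 in one direction against Chow and against each P diet, and for no P diet to differ from Chow at that level in the same direction. Of the 4447, in which 54.8% of differences were above 0 and 45.2% below, 29 met it: 15 were higher in ChowCR (0.337%) and 14 were lower (0.315%). The comparisons share the ChowCR libraries and the rule uses p-values, so the count is a description with no test of its own. Just inside the rule, by the largest of the p-values that it uses, lay Gm5138 (0.0482), Camk2b (0.0484) and Sod1 (0.0499). Just outside lay Preb (0.0508), Sec14l1 (0.0511) and Tsn (0.0525). Among the 29, 7 had a value of exactly 0 in some library, which may be a failed estimate, and several were processed pseudogenes whose reads may belong to near-identical parent genes. Without a model, 3 transcripts kept all 6 ChowCR libraries outside the range of all 18 P libraries. Those above were Pabpn1 and Gadd45b (0.045%), and the pseudogene Gm8337 lay below (0.0225%).

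Pabpn1, which encodes the nuclear poly(A)-binding protein that sets the length of poly(A) tails, had the smallest p-value. Its fully spliced transcript (ENSMUST00000022808.11, chromosome 14) was at 35.4, 35.4, 32.5, 36.5, 33.1 and 32.3 FPKM in the 6 ChowCR libraries. The 18 P libraries ran from 19.5 to 31.5 FPKM with a median of 24.5, and the 6 Chow libraries from 20.0 to 28.9 with a median of 25.2. Every ChowCR library lay above every library of the other diets. The log2 difference was 0.41 (SE 0.080; limma, adjusted p = 0.075), and against the mean of the other 4 diets it rose by 0.42 (SE 0.078; limma, adjusted p = 0.028). It was 0.35 against 5% P, 0.35 against 10% P, 0.52 against 15% P and 0.46 against Chow, and 0.40 in females and 0.41 in males. The P mean differed from Chow by 0.05. The call against the other 4 diets was lost without ChowCR replicate 1 (adjusted p = 0.083), 2 (0.068), 3 (0.14) or 4 (0.084).

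The second abundant Pabpn1 transcript keeps the last intron. In GENCODE M21 (GRCm38), whose versions of these transcripts are newer than those in the file, that intron covers chr14:54897273-54898016 on the plus strand, 744 bases. The spliced form has 906 coding bases and the retained form 876. The human gene is known to hold down its own level through retention of its terminal intron, which makes the junction the point where the forms part. The sequences below run across it, with the bases that follow the end of exon 6 in capitals.
Pabpn1 spliced, exon 6 to exon 7: gggtcgaatctacagGGGCCGGGCTAGAGC
Pabpn1 retained, exon 6 into the intron: gggtcgaatctacagGTCAGGATAGATGGG
The retained form was at 39.3 to 55.4 FPKM in ChowCR with a median of 47.0, and at 42.7 to 57.1 FPKM in the P diets with a median of 48.0. Its log2 difference was -0.05 (limma, adjusted p = 0.91), and the groups overlapped over most of their range. The spliced form made up 37.4 to 47.4% of the pair in ChowCR (median 42.2%), 29.7 to 39.6% in the P diets (median 35.1%) and 30.1 to 42.6% in Chow (median 37.2%). Summed over all Pabpn1 transcripts, the log2 difference was 0.13 (limma on gene sums, adjusted p = 0.52). The size of each form rests on how the authors' quantification split reads between them.

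**Figure D1:**
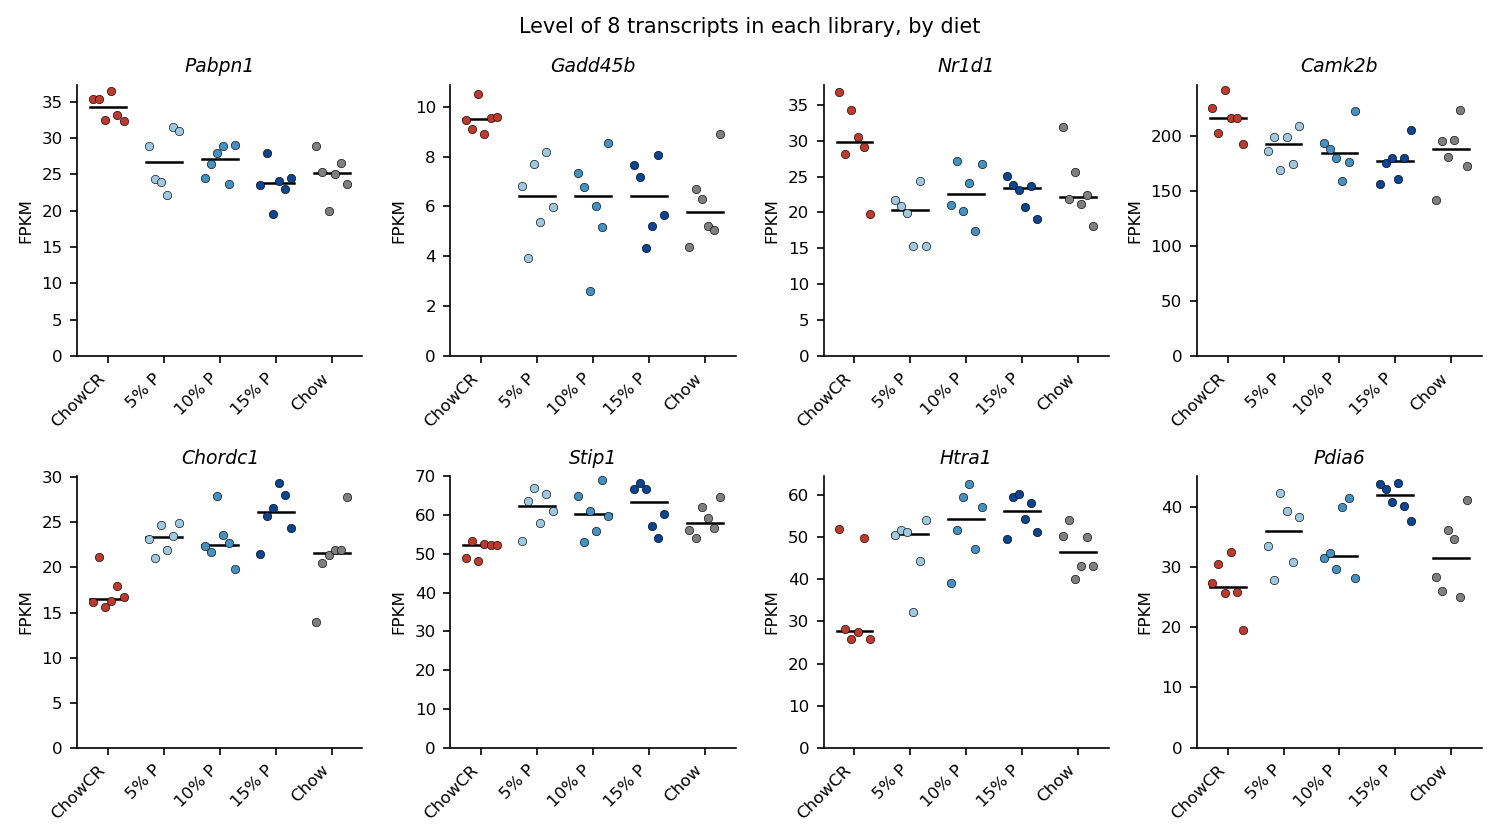
Level in FPKM (y axis) of 8 transcripts in each library, by diet (x axis; 6 libraries a diet); each point is a library and each bar the median of its diet. The 6 ChowCR points of Pabpn1 (32.3 to 36.5 FPKM) and Gadd45b (8.91 to 10.5 FPKM) lie above every other point in their panels, while Htra1 has 2 ChowCR points near those of the other diets.

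Gadd45b, an activity- and stress-induced gene linked to DNA repair and demethylation, was at 9.47, 9.09, 10.5, 8.91, 9.53 and 9.58 FPKM in ChowCR. In the P diets it ran from 2.62 to 8.53 FPKM with a median of 6.40, and in Chow from 4.37 to 8.88 with a median of 5.76. The ChowCR values were tightly grouped and lay above all others. The log2 difference came to 0.61 (SE 0.17; limma, adjusted p = 0.33). Among immediate early genes, which neurons switch on with activity, 13 were measured, 8 of them higher in ChowCR and 5 lower. Of all transcripts tested, 54.8% were higher, 3.51% at an unadjusted p under 0.05. The 5 lower genes ran from -1.10 to -0.40, 0 of them at that p. An unadjusted p under 0.05 was found for Fos, with a log2 difference of 0.56, and for the nuclear receptor gene Nr4a1, with 0.39 (limma, adjusted p = 0.66 and 0.63). Nr4a1 in ChowCR lay near Chow, with a difference of 0.01, while the P mean differed from Chow by -0.38. For Fos these differences were 0.26 and -0.31. Fos was at 8.50 to 20.5 FPKM in ChowCR with a median of 14.6, and at 2.995 to 15.7 in the P diets with a median of 10.4. Its difference was 1.11 in females and 0.02 in males. No transcript passed the test of a difference between the sexes (limma, smallest adjusted p = 0.53), and 221 had an unadjusted p under 0.05.

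Clock genes were next. Nr1d1, which encodes the clock repressor REV-ERBα, was at 36.7, 28.2, 34.3, 30.5, 29.1 and 19.8 FPKM in ChowCR, against 15.3 to 27.1 FPKM in the P diets (median 21.4) and 18.1 to 31.9 FPKM in Chow (median 22.2). In 5 of 6 ChowCR libraries it was above the highest P library. On the log2 scale the difference was 0.44 (SE 0.11; limma, adjusted p = 0.18), and it ranged between 0.37 and 0.59 against the single P diets and was 0.33 against Chow. Dbp, a transcription factor gene whose RNA follows the clock with a large daily swing, was chosen after its values were seen, because its main transcript was unlisted in 1 library of 5% P and so was not tested. Summed over its transcripts, with unlisted ones at 0, Dbp was at 29.2, 17.8, 31.7, 28.5, 22.7 and 23.4 FPKM in ChowCR. It was at 2.998 to 17.99 FPKM in the P diets with a median of 13.1, and at 10.3 to 26.3 FPKM in Chow with a median of 13.4. The 2.998 is from 5% P replicate 4, the library without the main transcript, and the next P value was 5.82, in 5% P replicate 2. In 5 of 6 ChowCR libraries Dbp lay above every P library. The log2 difference of the sum, with 5% P replicate 4 included, was 1.14 (SE 0.23; limma on gene sums, adjusted p = 0.067). Its main transcript had 1.41 with the unlisted library at 0 (limma, adjusted p = 0.47) and 1.21 with it left missing (adjusted p = 0.13). Bhlhe41, a repressor within the clock, differed by -0.88 (limma, adjusted p = 0.67). Of 8 measured clock genes, 6 were higher and 2 lower, with 1 at an unadjusted p under 0.05 in each direction. Over all genes, 54.95% were higher. In that count Dbp was taken by a minor transcript that averaged 1.26 FPKM, with a log2 difference of 0.40. The hour at which tissue was taken is not given in the labels.

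**Figure D2:**
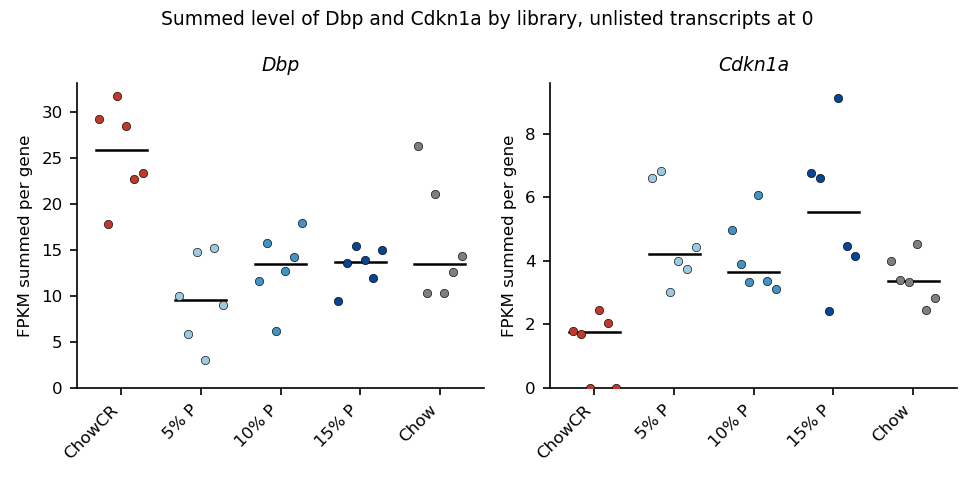
FPKM summed over the transcripts of Dbp and of Cdkn1a (y axis) in each library, by diet (x axis; 6 libraries a diet), with unlisted transcripts taken as 0; bars are medians. Dbp has 5 of its 6 ChowCR points above 17.99 FPKM, the highest P library, and Cdkn1a has its ChowCR points between 0 and 2.45 FPKM.

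A synaptic kinase and a protein of ER membranes were among the 29. Camk2b, a subunit of the calcium-dependent kinase of the postsynaptic density, was at 193 to 241 FPKM in ChowCR with a median of 216, at 156 to 223 FPKM in the P diets with a median of 180, and at 142 to 224 FPKM in Chow with a median of 188. The ChowCR libraries lay in the upper part of a range that the groups share. Its log2 difference was 0.23 (SE 0.075; limma, adjusted p = 0.44). Rtn3, a reticulon that shapes ER membranes, had a wider gap, with 53.3 to 226 FPKM in ChowCR (median 180) and 12.8 to 197 FPKM in the P diets (median 42.0). Its log2 difference was 1.74 (SE 0.44; limma, adjusted p = 0.18), and 5 of the 6 ChowCR libraries were at or above 169 FPKM. Beside these values, 7 markers of pyramidal and granule neurons were measured, 6 higher and 1 lower in ChowCR, with a median log2 difference of 0.11. The median over all 3725 genes was 0.03, with 54.95% of genes higher. Whether the neuronal markers bear on these transcripts was not tested.

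Other transcripts higher in ChowCR were RNA-processing and chromatin isoforms. For Hp1bp3, a chromatin protein related to linker histones, the transcript that skips a 198-base exon (chr4:138221526-138221723, GRCm38) was at 11.1 to 18.3 FPKM in ChowCR with a median of 14.1, and at 6.56 to 15.4 FPKM in the P diets with a median of 8.45. The log2 difference was 0.60 (SE 0.15; limma, adjusted p = 0.18). That transcript was 47.2 to 68.6% of the pair with its longer partner in ChowCR (median 62.6%), and 28.1 to 62.6% in the P diets (median 39.98%). Rbm42, an RNA-binding protein, had a transcript with an added 66-base exon (chr7:30645919-30645984, GRCm38) at 10.02 to 13.96 FPKM in ChowCR with a median of 12.1, and at 4.65 to 14.3 FPKM in the P diets with a median of 7.39. The log2 difference came to 0.64 (SE 0.16; limma, adjusted p = 0.18). It formed 39.3 to 66.8% of its pair in ChowCR (median 53.7%) and 26.1 to 65.2% in the P diets (median 34.7%). Summed per gene, the log2 differences were 0.15 for Hp1bp3 and 0.16 for Rbm42 (limma on gene sums, adjusted p = 0.67 and 0.75). The shares overlapped between the diets for both genes.

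**Figure D3:**
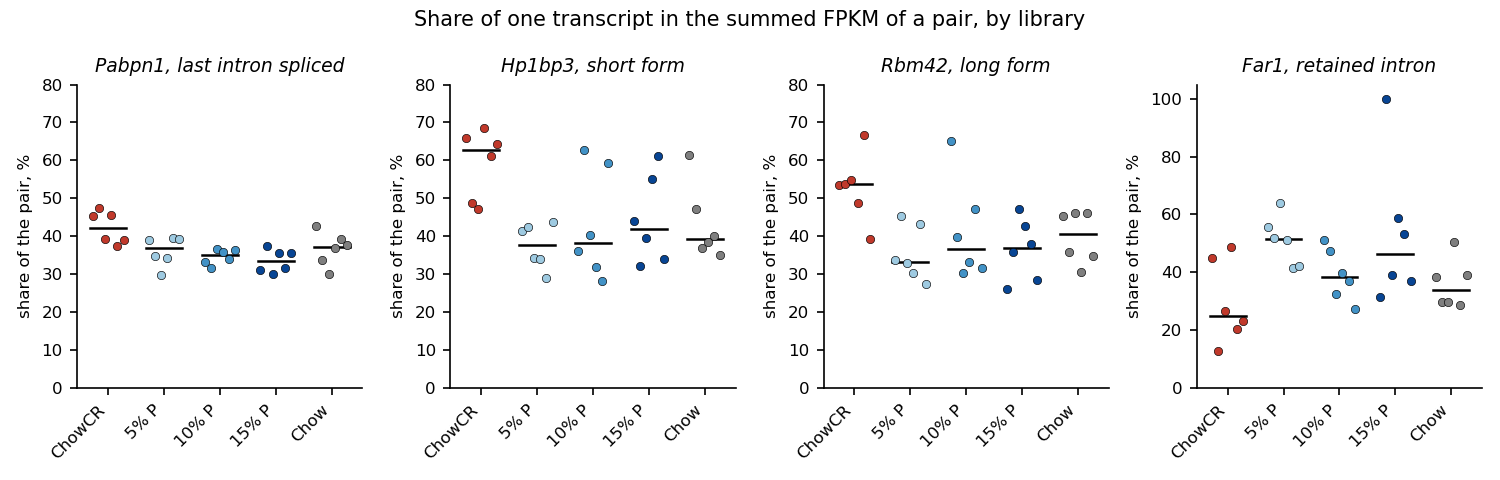
Share of a transcript in the summed FPKM of a pair of isoforms, in percent (y axis), for Pabpn1, Hp1bp3, Rbm42 and Far1 in each library, by diet (x axis; 6 libraries a diet); bars are medians. The median share in ChowCR is 42.2% for Pabpn1, 62.6% for Hp1bp3, 53.7% for Rbm42 and 24.8% for Far1, and the ChowCR points overlap those of other diets in every panel.

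Some chaperone transcripts of the cytosol had lower values in ChowCR, and 2 of them, Chordc1 and Stip1, were among the 29. Chordc1, a co-chaperone of HSP90, was at 16.2, 21.1, 15.6, 16.3, 17.9 and 16.7 FPKM in ChowCR. It was at 19.9 to 29.4 FPKM in the P diets with a median of 23.6, and at 14.01 to 27.8 FPKM in Chow with a median of 21.6. In 5 of 6 ChowCR libraries it lay below the lowest P library, and within the Chow range in all 6. On the log2 scale the difference was -0.47 (SE 0.095; limma, adjusted p = 0.075), made up of -0.42 against 5% P, -0.40 against 10% P and -0.57 against 15% P, and it was -0.27 against Chow. Stip1, the adaptor that passes clients between HSP70 and HSP90, was at 48.2 to 53.4 FPKM in ChowCR (median 52.2), 52.9 to 69.0 in the P diets (median 61.0) and 54.0 to 64.6 in Chow (median 58.0). Its ChowCR range lay below the Chow range and met the P range only at its edge. This gave a log2 difference of -0.25 (SE 0.061; limma, adjusted p = 0.17). Ahsa1, which activates the ATPase of HSP90, was at 38.3 to 49.8 FPKM in ChowCR (median 42.1) and 42.8 to 66.9 in the P diets (median 52.8), a log2 difference of -0.31 (SE 0.091; limma, adjusted p = 0.40). All 3 are partners of HSP90.

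Of 14 measured heat shock chaperone genes, 12 were lower and 2 higher in ChowCR, 3 of them at an unadjusted p under 0.05, all lower, and 0 passed (limma). The median log2 difference was -0.24 beside 0.03 over all genes, and of all transcripts tested 45.2% were lower, 2.97% at that p. Between ChowCR and Chow the median of these genes was -0.058, and between the P mean and Chow 0.18. The inducible Hspa1a (-0.57), Dnajb1 (-0.23) and Hsph1 (-0.38) had unadjusted p-values of 0.31, 0.44 and 0.44 and are given as values. From Chow, ChowCR differed by 0.73, 0.10 and 0.28 for these genes. Hspa1a and Hspa1b are near-identical copies, and their reads are hard to tell apart. Summed over the 23 genes of the list in the file, the level was 425 to 492 FPKM in ChowCR with a median of 468, 471 to 582 FPKM in the P diets with a median of 533, and 406 to 535 FPKM in Chow with a median of 526. The ChowCR sums met the lower edge of the P range. Transcripts that a library did not list entered these sums as 0, and Hspb1 had no value above 0 in any library.

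Promoters of these genes were searched because heat shock factors bind repeats of nGAAn. Each sequence below spans 250 bases before to 50 after the start of the gene in RefSeq (GRCm38.p6), 5′ to 3′, with the motif in capitals. In Chordc1 (chr9:18292017-18292316, plus strand) overlapping copies of the pattern GAA, any 2 bases, TTC, any 2 bases, GAA lay across the annotated start. It was read on both strands and was held by 198 of 32851 promoters (0.603%). Of the 14 heat shock genes, 10 had a promoter in the table and 2 held the pattern, Chordc1 and Hsph1.
Chordc1 promoter: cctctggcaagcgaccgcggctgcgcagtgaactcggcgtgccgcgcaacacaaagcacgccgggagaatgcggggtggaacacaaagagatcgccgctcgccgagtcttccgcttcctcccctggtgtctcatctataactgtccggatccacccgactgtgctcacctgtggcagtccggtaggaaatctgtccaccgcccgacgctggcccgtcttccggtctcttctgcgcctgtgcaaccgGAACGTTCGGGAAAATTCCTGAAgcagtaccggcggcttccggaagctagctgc
In Pdia6 (chr12:17266339-17266638, plus strand) the ER stress element, CCAAT and CCACG with 9 bases between them, was present, found in 39 of the 32851 promoters (0.119%). Of the 9 measured ER genes, 8 had a promoter in the table and 3 held that element, Hspa5, Calr and Pdia6, and Dnajb11 held the related pattern of ATTGG, any base and CCACG, found in 12 promoters (0.0365%). A match is a description of letters and not of binding.
Pdia6 promoter: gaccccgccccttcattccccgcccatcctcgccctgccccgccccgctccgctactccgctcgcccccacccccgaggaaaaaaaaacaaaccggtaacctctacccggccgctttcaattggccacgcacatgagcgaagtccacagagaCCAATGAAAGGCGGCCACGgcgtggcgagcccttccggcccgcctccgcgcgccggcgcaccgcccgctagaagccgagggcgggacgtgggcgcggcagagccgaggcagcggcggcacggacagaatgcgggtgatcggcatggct

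ER chaperones also had lower values in ChowCR than in the P diets, and some of them lay near Chow. Pdia6, a disulfide isomerase, was at 27.4, 30.5, 25.7, 32.5, 25.8 and 19.6 FPKM in ChowCR, at 27.9 to 43.9 FPKM in the P diets (median 38.8), and at 24.98 to 41.1 FPKM in Chow (median 31.5). The log2 difference was -0.45 (SE 0.11; limma, adjusted p = 0.18), and -0.23 against Chow. Dnajb11, an ER co-chaperone of HSPA5, was at 11.4 to 17.5 FPKM in ChowCR (median 14.1), 13.1 to 24.5 in the P diets (median 19.5) and 9.97 to 19.5 in Chow (median 13.9). Its log2 difference was -0.45 (SE 0.11; limma, adjusted p = 0.18), while ChowCR differed from Chow by 0.02 and the P mean differed from Chow by 0.46. Xbp1, whose spliced RNA encodes a regulator of ER chaperone genes, had a difference of -0.33 (SE 0.12; limma, adjusted p = 0.58), with 0.04 between ChowCR and Chow and 0.37 between the P mean and Chow. For Calr, a calcium-binding chaperone, the difference was -0.28 (SE 0.098; limma, adjusted p = 0.55). By these values ChowCR lay near Chow for Dnajb11 and Xbp1, and neither was among the 29 transcripts of the rule.

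Of 9 measured ER genes, 7 were lower and 2 higher in ChowCR, 5 of them at an unadjusted p under 0.05, all lower, and 0 passed (limma). Over all transcripts tested, 45.2% were lower and 2.97% were lower at that p. The median log2 difference of the ER genes was -0.35 beside 0.03 over all genes, and it was -0.27 against 5% P, -0.29 against 10% P and -0.48 against 15% P. Between ChowCR and Chow the median was -0.12, and between the P mean and Chow 0.19. Summed over the 20 genes of the list in the file, the level was 333 to 466 FPKM in ChowCR with a median of 434, 396 to 609 FPKM in the P diets with a median of 496, and 411 to 529 FPKM in Chow with a median of 452. The fifth gene at an unadjusted p under 0.05, beside those above, was Manf, a factor of the ER secreted under stress, at -0.40. Hspa5 was not at that p, with -0.35 (SE 0.24; limma, adjusted p = 0.83). The higher genes were the isomerase Ppib (0.06) and the disulfide isomerase P4hb (0.21).

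**Figure D4:**
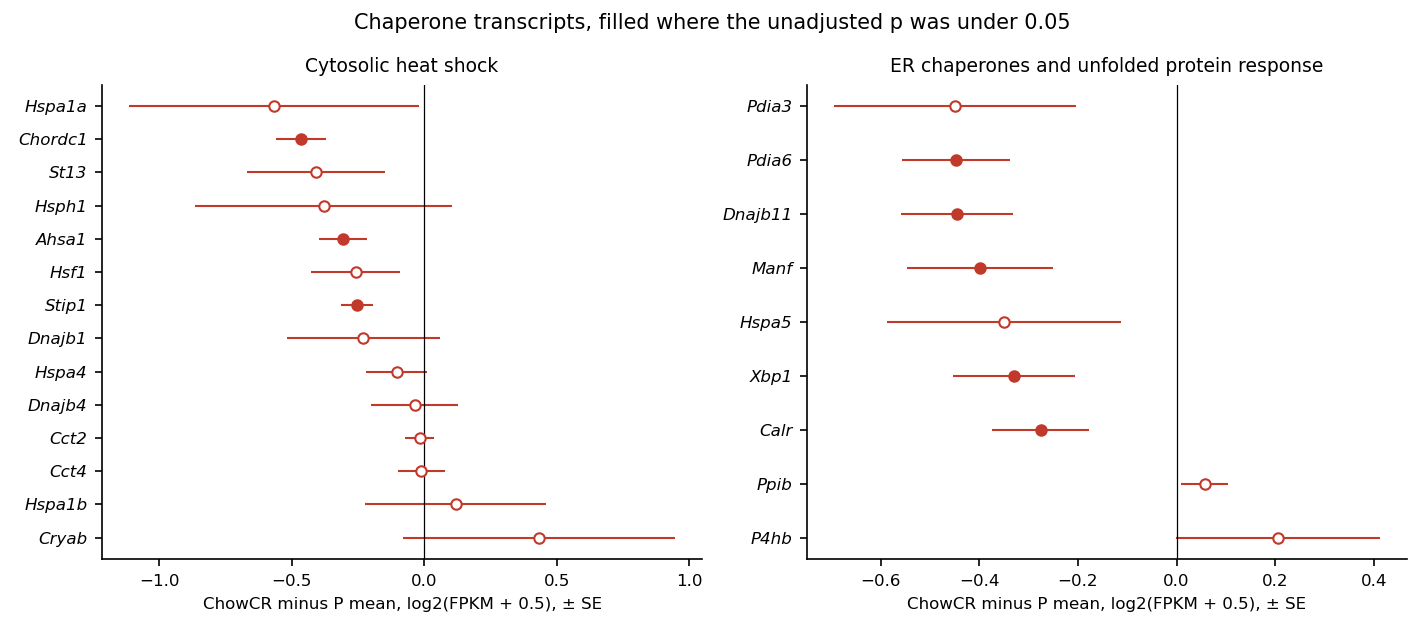
Log2 difference with its standard error (x axis, ChowCR minus P mean) for each measured chaperone gene of the ER and of the cytosol (y axis), filled where the unadjusted p was under 0.05. Of the ER genes 7 of 9 and of the cytosolic genes 12 of 14 lie left of 0.

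Htra1, Sod1 and Sesn3 also had lower values. Htra1, a secreted serine protease made largely by astrocytes in the brain, was at 52.0, 28.1, 25.9, 27.6, 49.8 and 25.9 FPKM in ChowCR. The P libraries ran from 32.3 to 62.7 FPKM with a median of 51.7, and the Chow libraries from 39.97 to 54.1 FPKM with a median of 46.6. Thus 4 ChowCR libraries lay below every other library and 2, replicates 1 and 5, both males, lay among them. The log2 difference came to -0.62 (SE 0.13; limma, adjusted p = 0.075), and -0.88 in females and -0.36 in males. Beside 54.95% of all genes higher, astrocyte markers had a median log2 difference of -0.01, with 3 of 7 measured higher, 4 lower and 0 passing (limma). Their sum over 11 genes was 1073 to 1315 FPKM in ChowCR and 913 to 1468 FPKM in the P diets. Sod1, the cytosolic superoxide dismutase, was at 19.2 to 47.9 FPKM in ChowCR (median 32.1) and 29.4 to 76.1 FPKM in the P diets (median 49.5), a log2 difference of -0.66 (SE 0.22; limma, adjusted p = 0.44). Sesn3, a sestrin that restrains the growth kinase mTORC1 and is induced by FOXO factors, was at 7.57 to 10.3 FPKM in ChowCR (median 9.37) and 9.27 to 14.04 FPKM in the P diets (median 11.2). Its log2 difference was -0.32 (SE 0.089; limma, adjusted p = 0.32).

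Far1, a fatty acyl-CoA reductase of ether lipid synthesis, differed in a transcript annotated as a retained intron. That transcript (chr7:113560915-113568150, plus strand, GRCm38) was at 6.20, 2.12, 3.89, 5.06, 3.14 and 3.11 FPKM in ChowCR, 4.22 to 8.67 FPKM in the P diets (median 6.29) and 4.57 to 6.92 FPKM in Chow (median 5.65). In 4 of 6 ChowCR libraries it lay below every P library. On the log2 scale the difference was -0.70 (SE 0.14; limma, adjusted p = 0.075). Summed over all transcripts of Far1, the difference was -0.02 (limma on gene sums, adjusted p = 0.97). R3hdm1, an RNA-binding domain protein, had -0.45 for 1 protein-coding transcript (ENSMUST00000187900.4; SE 0.13; limma, adjusted p = 0.32). Its other tested transcripts had -0.13, -0.24 and 0.26, and the gene sum -0.19 (limma on gene sums, adjusted p = 0.75).

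Gm15525 and Map1s were higher in ChowCR than in Chow but did not meet the rule, since at least 1 P diet differed from Chow in the same direction at an unadjusted p under 0.05. Gm15525, a predicted gene with no entry in GENCODE M21, was at 2.61, 3.87, 10.1, 2.91, 2.55 and 1.93 FPKM in ChowCR, 0.197 to 2.78 FPKM in the P diets (median 0.741) and 0.0194 to 0.433 FPKM in Chow (median 0.287). Against the mean of the other 4 diets it rose by 1.64 (SE 0.30; limma, adjusted p = 0.028). That call was lost without ChowCR replicate 2 (adjusted p = 0.068) or 3 (0.14). Its difference from the P mean was 1.403 (limma, adjusted p = 0.10), and the P mean differed from Chow by 0.96. Map1s, a microtubule-associated protein linked to autophagy, was at 13.2 to 16.3 FPKM in ChowCR (median 14.6), 8.46 to 13.9 in the P diets (median 11.7) and 7.94 to 11.2 in Chow (median 8.84). Its ChowCR and P ranges met at the edge, and the log2 difference was 0.32 (SE 0.089; limma, adjusted p = 0.32), with 0.33 between the P mean and Chow.

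**Figure D5:**
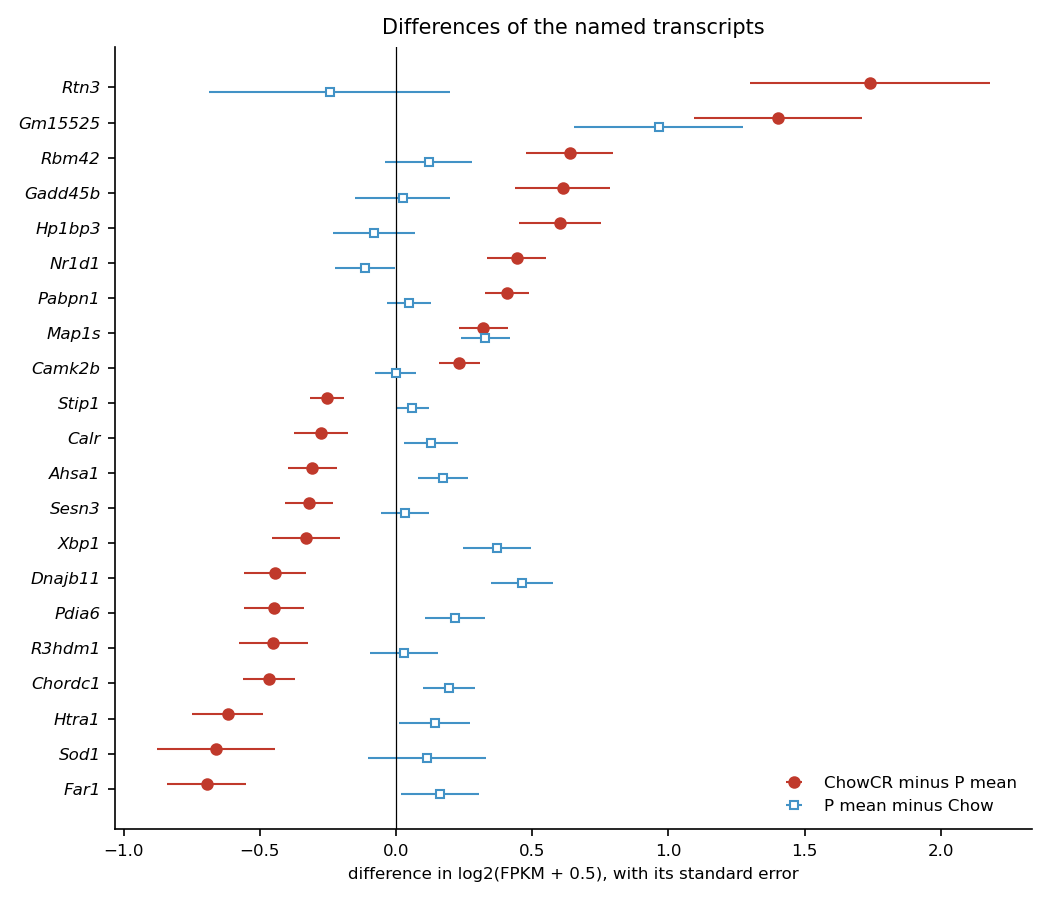
Differences in log2(FPKM + 0.5) with their standard errors (x axis) for 21 transcripts (y axis): filled circles are ChowCR minus the P mean and open squares are the P mean minus Chow. Gadd45b, Pabpn1 and Camk2b have squares near 0 beside circles above 0, whereas Dnajb11 and Xbp1 have squares above 0 (0.46 and 0.37) beside circles below 0; the 2 differences share the P libraries.

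Some transcripts were absent from the test because a library did not list them. Listing itself was compared for 34898 transcripts listed in some and not all of the 24 libraries, and 0 passed (0%; two-sided Fisher's exact test with Benjamini-Hochberg adjustment, smallest adjusted p = 1). At an unadjusted p under 0.05 there were 481, of which 313 were listed more often in ChowCR and 168 less often. The smallest p that 6 against 18 libraries allow is 7.4e-06, and the smallest found was 0.00014, for Mir128-1, a microRNA gene that lies within R3hdm1, and its listed values were all 0.

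A second fit, in which 7510 transcripts listed in at least 24 libraries were kept and unlisted values were set to 0, gave 3 calls (0.0399%), all lower in ChowCR. Setting an unlisted value to 0 is a choice, since unlisted is not the same as absent. The filter admits a transcript that no ChowCR library lists, but not one that more than 6 of the 18 P libraries lack, so the direction of calls that rest on unlisted values is partly built in. Cdkn1a, which encodes the cell cycle inhibitor p21, a p53 target and a marker of cell stress and senescence, had a transcript listed at 1.21, 2.26 and 1.49 FPKM in 3 ChowCR libraries and unlisted in 3. The same transcript was listed in all 18 P libraries at 1.86 to 8.01 FPKM with a median of 3.62, and in all 6 Chow libraries at 2.09 to 4.004 FPKM with a median of 2.45. Summed over Cdkn1a transcripts, ChowCR was at 1.79, 1.70, 0, 2.45, 2.05 and 0 FPKM. The P diets had sums of 2.43 to 9.14 FPKM with a median of 4.28, and Chow of 2.45 to 4.53 FPKM with a median of 3.35. The ChowCR sums met the P sums only at their lower edge. With unlisted values at 0 the log2 difference was -2.04 (SE 0.31; limma, adjusted p = 0.0039), and with those values left missing it was -1.06 (limma, adjusted p = 0.37), so the call was made only with the 3 unlisted libraries at 0. The P mean differed from Chow by 0.41 with unlisted values at 0.

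The other calls of that fit were for Grb2 and Rgs7. Grb2, an adaptor that joins growth factor receptors to Ras, had a transcript listed in 1 of 6 ChowCR libraries at 12.9 FPKM, in 17 of 18 P libraries and in 6 of 6 Chow libraries. The listed ChowCR value lay near the median of the listed P values, 12.8 FPKM. The fitted difference of -3.77 (SE 0.62; limma, adjusted p = 0.0078) comes from the 5 unlisted ChowCR libraries set to 0, and the transcript entered at the fewest listed libraries allowed, 24. Summed over its transcripts, Grb2 was at 0 in 5 ChowCR libraries and at 30.1 FPKM in the other. Nearly all cells use this gene, so a gap in the listing is not read here as a level of 0. The call was lost without ChowCR replicate 2 (adjusted p = 0.062). Rgs7, a regulator of G protein signalling in neurons, was at 1.5, 4.63, 2.79, 11.2 and 0.893 FPKM in 5 ChowCR libraries and unlisted in 1. It was at 1.158 to 20.2 FPKM in the P diets and at 8.36 to 19.1 FPKM in Chow. The log2 difference was -2.35 with the unlisted value at 0 (SE 0.44; limma, adjusted p = 0.032), a call made in 12 of 30 fits with a library left out, and -1.86 with it left missing (limma, adjusted p = 0.087).

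Energy and nutrient pathways are described by their counts, and 0 members passed in any of them (limma). Over all genes, 54.95% were higher in ChowCR, a share to which several of these counts lie near. Of all transcripts tested, 3.51% were higher at an unadjusted p under 0.05 and 2.97% lower. Of 46 subunits of oxidative phosphorylation, 36 were higher in ChowCR and 10 lower, with a median log2 difference of 0.06 beside 0.03 over all genes, and 3 had an unadjusted p under 0.05. These were the ATP synthase subunits Atp5d (1.30) and Atp5a1 (0.08) and the complex I subunit Ndufv1 (0.09). Of 12 proteasome subunits 8 were higher and 4 lower, with a median of 0.09, and Psmb4 (0.16), Psma7 (0.20) and Psmb2 (0.19) had an unadjusted p under 0.05. All 6 measured insulin and IGF signalling genes were higher, among them the binding protein Igfbp5 (0.44), the substrate Irs2 (0.26) and the kinases Gsk3a (0.13) and Gsk3b (0.16), and none had an unadjusted p under 0.05. In the list of sirtuins, AMPK and Foxo factors, 4 of 5 measured genes were higher. No sirtuin was among those measured, and Foxo4 was the only Foxo factor. Nampt, the enzyme that limits NAD synthesis from nicotinamide, was at 10.6 to 19.9 FPKM in ChowCR (median 14.8) and 5.84 to 18.2 FPKM in the P diets (median 10.7), a log2 difference of 0.42 (limma, adjusted p = 0.64). Of 8 glycolysis genes 4 were higher and 4 lower, including Aldoa (0.15), Hk1 (0.30) and the glucose transporter gene Slc2a1 (-0.58). Of 8 genes of ketone and fatty acid oxidation 5 were higher, and Acat1, a mitochondrial thiolase of ketone use, had 0.30 (limma, adjusted p = 0.67). Of 8 cholesterol genes 7 were lower, with a median of -0.11 and 0 at an unadjusted p under 0.05. Targets of the amino acid shortage factor ATF4 had 6 of 8 higher with a median of 0.03, beside 0.03 over all genes, and mTOR and translation genes had 5 of 6 higher with a median of 0.15.

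Markers of other cells had the differences below, beside 54.95% of all genes higher and a median of 0.03 over all genes. Choroid plexus markers, from tissue that lies against the hippocampus, had 3 of 3 measured genes higher in ChowCR with a median log2 difference of 0.77. Between ChowCR and Chow that median was -0.12, and between the P mean and Chow -0.91. Their sum over 12 genes was 62.5 to 8132 FPKM in ChowCR (median 1830) and 47.5 to 6495 FPKM in the P diets (median 95.9). In Chow the sum was 57.4 to 7130 FPKM (median 1758), so by these medians ChowCR lay near Chow. None of those 12 was at 0 in every library. With the choroid plexus gene Ttr as a covariate, the log2 differences from the mean of the other 4 diets were 0.42 for Pabpn1 and 1.67 for Gm15525 (limma, adjusted p = 0.044 each). Microglial markers had 0 of 4 higher, with a median of -0.14, and Tmem119 had -0.82 (limma, adjusted p = 0.58). In ChowCR replicate 4 Tmem119 was at 0.283 FPKM, and without that library the difference was -0.25 (limma, adjusted p = 0.77). Their sum over 11 genes was 158 to 240 FPKM in ChowCR and 149 to 263 FPKM in the P diets. Myelin markers had 6 of 10 higher, with a median of 0.07 and differences from -0.94 to 1.90. The lowest was that of Mobp (limma, adjusted p = 0.67). Summed over 13 genes, they were at 716 to 1867 FPKM in ChowCR (median 1703) and 616 to 2535 FPKM in the P diets (median 1721). The part of microglia and myelin in the differences above was not tested.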

How the data were processed

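Per the labels' protocols, RNA was extracted with TRIzol from 30 hippocampi, poly(A) RNA was turned into stranded libraries (Illumina TruSeq Stranded mRNA), and a HiSeq instrument read single ends for 100 cycles. The submitters' processing notes name the mm10 build and these tools: DESeq2 1.16.1, featureCounts 1.4.6, StringTie 1.2.4, TopHat2 2.0.14 and bcl2fastq 2.18.0. Their roles and the strand setting are not given in the sources used here, which leaves antisense and overlapping genes uncertain. The authors deposited FPKM per transcript, values scaled by transcript length and library size that keep no depth. The table had 46109 rows, 43994 of them Ensembl transcripts, and 6858 had a value in all 30 libraries. Where a value is missing, the library did not list the transcript.

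For the tests, log2(FPKM + 0.5) values of all 30 libraries, with sex as a covariate, entered a limma fit (version 3.58.1, R 4.3.3). It used lmFit, contrasts.fit and eBayes, the last with a trend, and tests were two-sided. The 4447 transcripts tested were valued in each library and averaged at least 1 FPKM. Exact zeros made up 7898 of their 133410 values, in 887 transcripts. Comparisons share libraries and were adjusted singly. P-values set a difference against the spread between animals within diets, estimated over all 5 diets and shared in part across transcripts. Tested on simulated data (10 simulations, 200 changed transcripts among 4447), the procedure recovered 25.2% of changes of 0.5 on the log2 scale, 53.4% of changes of 1 and 83.5% of changes of 2 in ChowCR minus the P mean, and 4.09% of its calls were false. The simulation drew independent normal values, with no exact zeros, outlying libraries, links between transcripts or sex effect. Its rates hold for those settings and may differ in these data.

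The members of the comparison, the gene lists and the fixed genes were chosen with earlier results of these data known, so the lists are described by counts and medians. Each gene was taken by its most abundant tested transcript. A minor form can therefore stand for a gene, as for Dbp among clock genes and for Glul, by a retained intron, among astrocyte markers. Named transcripts were the 24 of smallest p, up to 8 from the rule for ChowCR alone and up to 8 whose libraries did not overlap, those passing against the other 4 diets, up to 3 members of each pathway list and 2 of each marker list by p, and genes picked from those results. Preb, Sec14l1, Tsn, Gm5138, Manf, Ppib, P4hb, Irs2, Hspa1a, Hspa1b, Hspb1, Dnajb1, Hsph1, Mir128-1, Cdkn1a, Grb2, Rgs7 and the summed Dbp fall outside that rule and were named after their values were seen. One transcript that the naming rule picks and its gene list are not reported here. GENCODE M21 (GRCm38) gave coordinates and junctions, and 2139 of the tested transcripts matched it by full identifier and 2258 by identifier without version. Promoters come from RefSeq (GRCm38.p6). Alternatives were pseudocounts of 0.1 and 1, other filters, median-ratio rescaling, a fit without sex, a Ttr covariate, robust and weighted fits, the 24 libraries alone, gene sums, protein-coding transcripts, females or males alone, and leaving out each library. The 24 libraries with transcripts listed in those 24, and all alternatives for Cdkn1a, Grb2, Rgs7, Dbp, Tmem119 and Mobp, were added after seeing the data. Figures were drawn with matplotlib 3.10.9 in Python 3.11.15.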

Additional observations from a re-analysis of the deposited data

Results flagged for a closer look

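The 24 transcripts that carry the results were screened for single libraries far from the others of their diet, which makes 120 groups of 6 libraries. By chance about 1 in 20 such groups would be picked out, and 3 were. Rtn3 was at 53.3 FPKM in ChowCR replicate 4, where the other 5 ChowCR libraries were at 169 to 226 FPKM. Rtn3 was also at 13.0 FPKM in 5% P replicate 2, with the other libraries of that diet at 33.0 to 55.6 FPKM. Ahsa1 was at 60.4 FPKM in Chow replicate 4, with the other Chow libraries at 42.5 to 48.4 FPKM.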

How the results depend on the processing

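Directions held better than calls, but many of the transcripts were named for small p-values in the same comparison. The alternatives also refit the same libraries, so a kept direction is no separate support. Of 24 transcripts, 23 kept their direction in each of the 15 to 17 alternatives that held them and in 30 fits without a library. The exception was the shorter Rbm42 partner (ENSMUST00000108141.1), at 0.027 in females alone against -0.23. For ChowCR minus the P mean, 0 calls became 1 with median-ratio rescaling, with the 24 libraries alone (also where transcripts were listed in those 24) and in females, 2 with array weights, and 3 when listing in 24 or more libraries sufficed and in males. Leaving out a library gave 0 to 3. Chordc1 passed with median-ratio rescaling (limma, adjusted p = 0.036), the 24 libraries alone (0.024), array weights (0.039), without Chow replicate 1 (0.016) and without 10% P replicate 6 (0.049). Pabpn1 passed with array weights (0.039), without Chow replicate 1 (0.043) and without 10% P replicate 6 (0.049). Htra1 and Far1 passed without ChowCR replicate 1 (0.012 each), Htra1 without replicate 5 (0.022), and Far1 without replicate 4 (0.0498) and without 10% P replicate 6 (0.049). Against the other 4 diets, 2 calls became 1 with a mean of at least 5 FPKM, gene sums, protein-coding transcripts and females, and 5 when listing in 24 or more libraries sufficed and in males, and 0 to 5 without a library. There Pabpn1 was also lost with median-ratio rescaling (limma, adjusted p = 0.056) and gene sums (0.27), Gm15525 was not among the transcripts of at least 5 FPKM or the protein-coding ones, and both calls were lost in each sex alone. The 29 transcripts of the rule became 18 with protein-coding transcripts and 24 to 36 without a library, and 3 transcripts with libraries that did not overlap became 5 with rescaling. Without a library the list medians ran from -0.28 to -0.17 (heat shock), -0.091 to 0.048 (autophagy) and -0.0020 to 0.12 (postsynaptic density). The heat shock median was -0.17 with a mean of at least 5 FPKM and -0.15 in females. In females the medians were -0.37 for antioxidant genes and -0.38 for splicing factors. In males they were 0.063 (amino acid shortage), -0.078 (autophagy), 0.32 (clock), 0.13 (antioxidant), 0.18 (postsynaptic density), 0.24 (poly(A) genes) and 0.43 (splicing factors). With all libraries these were 0.03, 0.02, 0.12, -0.17, 0.08, -0.05 and 0.05 in that order. The cause was not tested. A fit of the 24 libraries gives no value against Chow and so none for the rule. No paired analysis was possible because the labels give no replicate numbers that groups share. Unknown depth limits what low transcripts can show.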

Other observations

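Values of 3 restriction-only transcripts outside the naming rule, picked after they were seen, were Dgat2, an enzyme of triglyceride synthesis, with a log2 difference of 0.39 from the P mean and 0.53 from Chow, Commd1, a copper and endosome regulator, with 0.76 and 0.71, and Fem1a, a ubiquitin ligase subunit, with 0.30 and 0.36. Cited2, a co-regulator of hypoxia and metabolic factors, was at 6.21 to 11.5 FPKM in ChowCR (median 8.35), 6.63 to 9.16 FPKM in the P diets (median 7.24) and 3.92 to 7.57 FPKM in Chow (median 5.70), a log2 difference of 0.17 from the P mean and 0.55 from Chow. Syngr1, a synaptic vesicle protein, was at 7.41 to 16.7 FPKM in ChowCR (median 8.25), 6.91 to 60.4 FPKM in the P diets (median 8.19) and 8.45 to 70.9 FPKM in Chow (median 50.9). Its difference from the P mean was -0.05. Ntrk2, the receptor of the neurotrophin BDNF, was at 14.1 to 35.3 FPKM in ChowCR (median 26.002) and 23.6 to 41.7 FPKM in the P diets (median 31.3), a log2 difference of -0.32 that was -0.60 in females and -0.03 in males (limma, adjusted p = 0.58 over both sexes).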
